A study of Mus musculus with 8 samples.

Results

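Rbm3 and Cirbp encode the cold-inducible RNA-binding proteins RBM3 and CIRBP, and both genes were taken by symbol from the count files, 2 of the 20308 genes there. They were followed in RNA of CD11b+ brain cells from 4 control mice and 4 CSF1 OE mice, to ask how each gene differed between the genotypes and whether the pair moved together from mouse to mouse. All 8 mice were F1 offspring of CD1 and C57Bl/6 and were 14 or 15 days old. CSF1 OE mice express secreted CSF1, a growth factor for microglia, in a subset of GFAP+ cells under the TRE/tTA system, and the controls served as its comparison. The cells were pulled from the right hemisphere of each brain with CD11b magnetic beads after myelin removal, with 1 library per mouse, so each library holds whatever cells came with the beads. The transgene is driven in GFAP+ cells and not in CD11b+ cells, so Csf1 in these libraries does not check the genotype labels.

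RBM3 and CIRBP are small glycine-rich proteins, each with an RNA recognition motif, and both are known for rising when cells are cooled by a few degrees. They bind messenger RNAs and affect their stability, translation and choice of polyadenylation site, CIRBP among others for transcripts of the circadian clock. RBM3 is known in the brain for sustaining synapses through Rtn3 and BDNF signalling, and CIRBP that leaves stressed cells is known to act on macrophages through TLR4. No temperature was recorded for these samples, and cold is background here and not a condition of the study.

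Rbm3 lies on the minus strand of the X chromosome (GRCm38, chrX:8138975-8145880, ENSMUSG00000031167.16) and Cirbp on the plus strand of chromosome 10 (chr10:80165985-80172786, ENSMUSG00000045193.13). GENCODE M21 places an antisense gene, Rbm3os, over Rbm3 and no gene over Cirbp. The strand setting of the counting was not given in the sources used here, so reads of Rbm3 and Rbm3os cannot be told apart. The longest identical run between any Rbm3 transcript and any Cirbp transcript was 11 bases, and neither gene could take whole reads from the other. Of the stretches of 100 bases in Rbm3 transcripts, 5.36% also occurred in 3 processed pseudogenes (Rbm3-ps, Gm10156 and Gm48583), and none of Cirbp's occurred in another gene. None of these 3 symbols was among the genes analysed here, so a division of reads between them and Rbm3 was not shown. The Rbm3 counts were not whole numbers in 8 of the 8 libraries (Cirbp, 5), as for 20.8% to 26.5% of genes per library. Where these fractions came from was not tested, and the Rbm3 level is uncertain to an unknown extent.

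The DNA just before the first of the 2 starts that RefSeq lists for Cirbp is shown because it carries the octamer of the mild cold response element, a short sequence known from cold-responsive transcription of Cirbp. It is RefSeq's sequence of the plus strand (GRCm38.p6, chr10:80167589-80167777), 189 bases that end where the first exon of the longer Cirbp messenger begins in GENCODE M21 and lie in an intron of a shorter coding transcript that starts further upstream, and capitals mark the octamer.
Cirbp: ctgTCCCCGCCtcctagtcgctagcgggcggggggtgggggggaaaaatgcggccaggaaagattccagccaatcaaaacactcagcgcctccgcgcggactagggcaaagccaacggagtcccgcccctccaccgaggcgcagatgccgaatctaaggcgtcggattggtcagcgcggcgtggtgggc
The octamer TCCCCGCC stood on the plus strand and began 247 bases before the RefSeq start at position 80167839. Searched on both strands of the 250 bases before the start, it was present in 4.64% of 32851 promoters. The same 250 bases held 3 GC boxes (GGGCGG), which 32.7% of promoters had, and no TATA box (TATAAA, 12.4%), E box (CACGTG, 6.02%), cyclic AMP response element (TGACGTCA, 1.55%) or pair of heat shock units (GAANNTTC, 6.69%). The 250 bases before the second start (chr10:80167921-80168170) held 4 GC boxes and no octamer. A match is only a run of letters, and factor binding was not measured.

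The libraries held between 12908144 and 15475465 expected counts in controls and between 12053259 and 14356532 in CSF1 OE. Microglial markers dominated the marker lists, with a summed level of 19807 to 34264 CPM (counts scaled to a common library size) over 9 genes in controls and 26236 to 37181 CPM in CSF1 OE, while the 4 T and NK cell markers together stayed at or below 0.227 CPM. Transcripts of other brain cells were present in every library. Of 13407 genes tested between the genotypes with edgeR, 59 were called, or 0.44% of genes. A call needed an adjusted p below 0.05 together with a fold change below 0.7 or above its inverse. The log2 fold changes of all tested genes had a median of -0.034.

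Rbm3 was expressed in every library, with 2124 to 5051 expected counts behind its values. The control mice 1827, 1872, 1874 and 1934 had 188, 147, 179.8 and 249 CPM. The CSF1 OE mice 1931, 1932, 1936 and 2019 had 294, 371, 325 and 280.0 CPM. Each CSF1 OE mouse was above each control mouse, as for 6.84% of the genes tested, and the closest pair was control 1934 and CSF1 OE 2019.

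The mean of Rbm3 was 191 ± 42.7 CPM (SD, n = 4) in controls and 318 ± 40.4 CPM (SD, n = 4) in CSF1 OE, a fold change of 1.66 with a 95% confidence interval of 1.29 to 2.15. On the log2 scale the difference was 0.73 with a standard error of 0.16. The adjusted p in edgeR's quasi-likelihood test was 0.0769, and so Rbm3 was not called at the 0.05 threshold. The study, which used EBSeq on these same mice, reports it as upregulated in CSF1 OE. Rbm3 ranked 254 of 13407 genes by p, and 1.75% of genes had a higher log2 fold change. Across the alternatives with all 8 mice the adjusted p ran from 0.00211 to 0.643, and 4 of them called Rbm3. DESeq2, which gave it the adjusted p of 0.00211, called 3.14% of all genes, and edgeR called 9.5% once the animal number range (described further on) entered as a term, 1.63% with a covariate for endothelial and precursor cell markers and 0.932% with one for neuron markers. A fit with the level of cycling cell markers as a covariate, added after seeing the data, brought the log2 difference down to 0.37 (standard error 0.19). The summed level of those markers did not overlap between the genotypes, so this fit cannot separate their level from genotype.

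Cirbp was expressed at a lower CPM, with 291 to 1267 expected counts. The control mice 1827, 1872, 1874 and 1934 had 30.2, 34.2, 30.2 and 60.6 CPM. The CSF1 OE mice 1931, 1932, 1936 and 2019 had 37.1, 93.1, 78.1 and 25.8 CPM. The genotypes overlapped, since CSF1 OE 2019 had the lowest value of all mice while CSF1 OE 1932 and 1936 had the highest.

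The mean of Cirbp was 38.8 ± 14.6 CPM (SD, n = 4) in controls and 58.5 ± 32.2 CPM (SD, n = 4) in CSF1 OE. The fold change was 1.51, and its 95% confidence interval of 0.80 to 2.86 includes both no difference and the fold change of Rbm3. The log2 difference of 0.59 had a standard error of 0.41 and an adjusted p of 0.498 in edgeR, with 0.0649 to 0.999 across the alternatives with all 8 mice. The difference in Cirbp between the genotypes did not exceed the spread between mice.

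**Figure D1:**
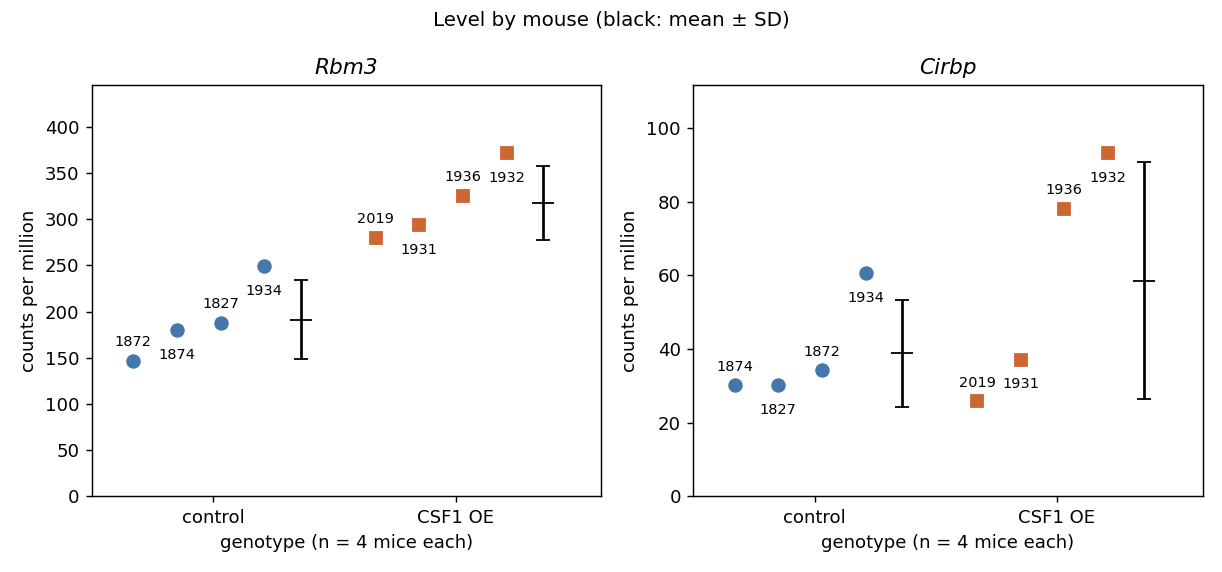
Level of Rbm3 (left) and Cirbp (right) in CPM for each mouse, sorted within genotype and labelled with the animal number, with blue circles for controls and orange squares for CSF1 OE; black bars are mean ± SD. Rbm3 in CSF1 OE (280.0 to 371 CPM) lies above every control (147 to 249 CPM), while Cirbp overlaps between the genotypes.

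The spread between mice was far above counting error for both genes. Rbm3 varied with a coefficient of variation of 22.3% in controls and 12.7% in CSF1 OE, against 1.41% to 2.17% from counting alone. Cirbp varied more, at 37.7% and 55.0%, against 2.81% to 5.86%. The highest mouse exceeded the lowest by 3.61-fold for Cirbp and by 2.53-fold for Rbm3.

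Per length of messenger, Rbm3 was at 132 ± 29.6 CPM per kilobase and Cirbp at 44.5 ± 16.8 CPM per kilobase in controls (SD, n = 4), using the mean length of the annotated coding transcripts (1443 bases over 6 transcripts and 872 bases over 2). In CSF1 OE the levels per kilobase were 220.1 ± 28.0 and 67.1 ± 36.9. The order of the pair depended on which transcript was used, because coding transcripts ran from 969 to 2792 bases for Rbm3 and from 423 to 1321 bases for Cirbp. The ratio of Rbm3 to Cirbp per kilobase in controls could lie between 0.746 and 6.71 over these lengths, so no order of level between them was established.

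Whether both genes differed by genotype to the same extent was asked with the ratio of Cirbp to Rbm3 within each mouse, which does not depend on library size. Cirbp amounted to 16.1%, 23.3%, 16.8% and 24.3% of the Rbm3 CPM in control mice 1827, 1872, 1874 and 1934. It amounted to 12.6%, 25.1%, 24.0% and 9.20% in CSF1 OE mice 1931, 1932, 1936 and 2019. CSF1 OE 1931 and 2019 were below every control, and CSF1 OE 1932 and 1936 were near the highest controls.

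The mean log2 ratio was -2.33 ± 0.31 (SD, n = 4) in controls and -2.62 ± 0.71 (SD, n = 4) in CSF1 OE. The difference of -0.28 gave p = 0.514 in the two-sided exact permutation test over 70 assignments, whose smallest possible p is 0.0286. The data therefore do not separate the genotype difference of Cirbp from that of Rbm3, and they do not show that both differences were equal.

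Within genotypes, both genes tended to be high in the same mice. After each genotype's mean log2 CPM was subtracted, 7 of 8 mice lay on the same side of their genotype mean in both genes, and the exception, control 1827, lay only 0.0038 above the mean for Rbm3. Control 1934 was above its genotype mean by 0.41 for Rbm3 and 0.71 for Cirbp, and CSF1 OE 1932 by 0.23 and 0.86. CSF1 OE 2019 was at -0.17 and -0.99, the lowest of its genotype in both.

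Pearson's r of these deviations over 8 mice was 0.73 (two-sided exact permutation p = 0.0365 over all pairings within genotype) and Spearman's rho was 0.74 (exact permutation p = 0.0625). Over the 8 mice without centring, r was 0.66 (exact permutation p = 0.0794) and rho 0.64 (exact permutation p = 0.0962). Without the 2 mice farthest from the median of Rbm3, control 1872 and 1874, the centred r was 0.92 (exact permutation p = 0.0417). The centred r stayed between 0.65 and 0.90 when any 1 mouse was left out. Its exact permutation p exceeded 0.05 without control 1934 (0.174), CSF1 OE 1931 (0.0764), 1932 (0.0764), 1936 (0.0625) or 2019 (0.0903), so the relation was positive in each reduced set but passed the threshold in only part of them.

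**Figure D2:**
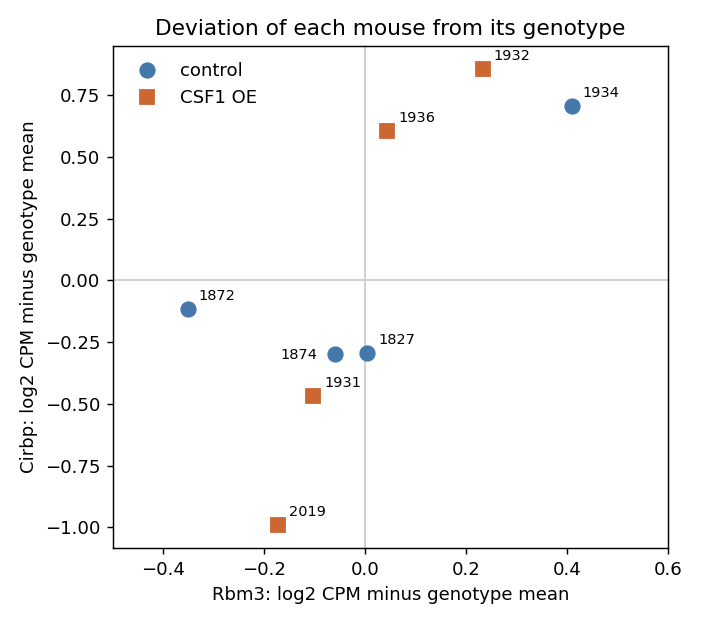
Deviation of each mouse from the mean of its genotype, in log2 CPM, for Rbm3 (horizontal axis) and Cirbp (vertical axis), labelled with the animal number; blue circles are controls and orange squares CSF1 OE. The points run from lower left to upper right (r = 0.73, n = 8), with control 1934 and CSF1 OE 1932 at the upper right and CSF1 OE 2019 lowest in Cirbp.

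The animal numbers fall into 1931 to 1936 and numbers outside that range, and the labels do not say whether this marks a litter or a processing day. The range holds 1 control (1934) and 3 CSF1 OE mice (1931, 1932 and 1936), so it is partly confounded with genotype. Cirbp followed it: the 4 mice inside the range had 37.1 to 93.1 CPM and the others at most 34.2 CPM, with means of 67.2 and 30.1 CPM. How many of all genes separate by this range was not counted, so the split is not shown to be particular to Cirbp. For Rbm3 the corresponding means were 309.9 and 199 CPM, with overlap.

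Within the range, Rbm3 was at 249 CPM in the control and 294 to 371 CPM in CSF1 OE, and outside it at 147 to 188 CPM in controls and 280.0 CPM in the CSF1 OE mouse. The fold change was thus above 1 in both subsets (1.32 and 1.64). Cirbp had fold changes of 1.07 within the range and 0.82 outside it, and in a fit that included the range its log2 difference was -0.034 with a standard error of 0.30 (adjusted p = 0.947 in edgeR, with 0.0649 to 0.999 across its alternatives). In that fit the log2 difference of Rbm3 was 0.56, smaller than the 0.73 without the term, and Rbm3 was called (adjusted p = 0.0321, with 0.00211 to 0.643 across its alternatives) along with 9.5% of all genes. Between mice of the same genotype and range, which leaves 6 mice and 36 pairings, r of Rbm3 and Cirbp was 0.49 (exact permutation p = 0.5).

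Neuron marker transcripts went with Cirbp across mice. In bulk RNA, fewer cells of a type and less RNA per cell cannot be told apart. The 5 neuron markers (Snap25, Syt1, Rbfox3, Tubb3 and Stmn2), none of which was called between the genotypes, summed to 77.6, 124, 80.4 and 294 CPM in control mice 1827, 1872, 1874 and 1934. They summed to 76.0, 185, 92.9 and 37.4 CPM in CSF1 OE mice 1931, 1932, 1936 and 2019. Control 1934 and CSF1 OE 1932 had the most neuron transcripts of their genotype, and also the most Cirbp and the most Rbm3.

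With genotype means removed, the mean log2 CPM of the neuron markers went with Cirbp at r = 0.90 (exact permutation p = 0.00174, the smallest that these pairings can give; adjusted p = 0.0347 over 40 relations of 20 lists with both genes) and rho = 0.90 (exact permutation p = 0.00347; adjusted p = 0.0694). Without control 1934 and CSF1 OE 1932 this r was 0.80. For Rbm3 the neuron markers gave r = 0.73 (exact permutation p = 0.0660; adjusted p = 0.150) and rho = 0.69 (exact permutation p = 0.0903; adjusted p = 0.212), and without those 2 mice r was -0.064, so that relation rested on them. The partial correlation of Rbm3 with Cirbp, given the neuron markers and genotype, was 0.26 against 0.73 without them, an alternative added after seeing the data.

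**Figure D3:**
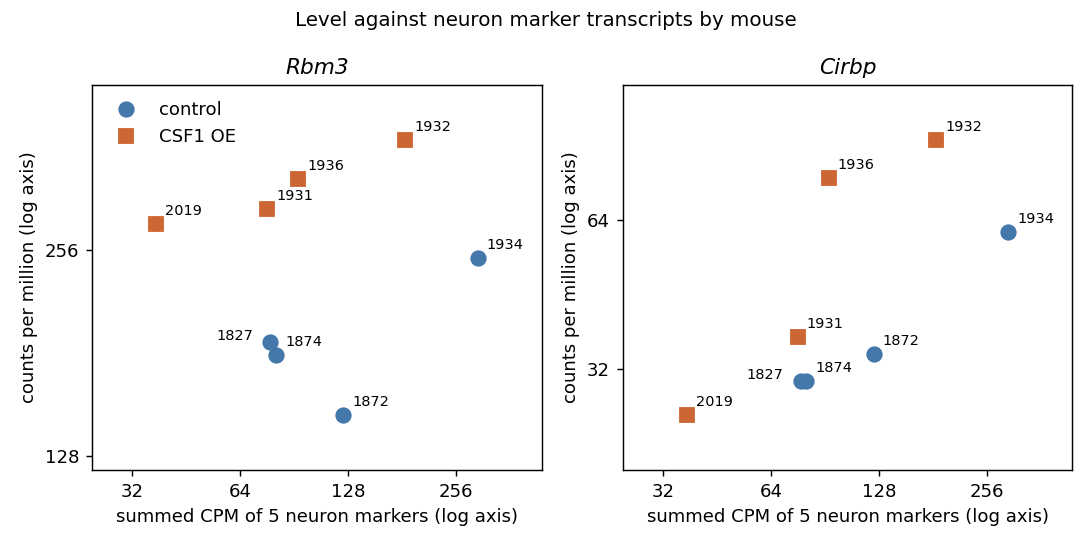
Level of Rbm3 (left) and Cirbp (right) in CPM against the summed CPM of 5 neuron markers, for each mouse, on log axes; blue circles are controls and orange squares CSF1 OE. Cirbp is lowest in CSF1 OE 2019, which has the fewest neuron transcripts (37.4 CPM), and within each genotype both genes are highest in the mouse with the most (control 1934 and CSF1 OE 1932).

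All 5 neuron markers had a log2 fold change below 0, with a median of -0.42, and none was called. A fit with their level as a covariate, also added after seeing the data, gave Rbm3 a log2 difference of 0.86 (adjusted p = 0.0286 in edgeR, with 0.00211 to 0.643 across its alternatives). In the same fit Cirbp had a log2 difference of 0.92 (adjusted p = 0.0649, with 0.0649 to 0.999 across its alternatives). The sum of 6 cycling cell markers was 239 to 560 CPM in controls and 604 to 793 CPM in CSF1 OE, with a median log2 fold change of 0.72 and 5 of the 6 genes above every control in CSF1 OE, against 6.84% of all genes. None of the 6 was called (adjusted p 0.109 to 0.431 in edgeR). With genotype means removed, their mean log2 CPM gave r = 0.75 with Rbm3 (exact permutation p = 0.0938, adjusted p = 0.163; rho = 0.79, exact permutation p = 0.0243, adjusted p = 0.131), which was 0.98 without control 1827 and 1872. Their part in the Rbm3 difference was not tested.

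The other relation that passed the threshold by Pearson's r after adjustment was that of Rbm3 with the 5 red blood cell markers (r = 0.79, exact permutation p = 0.00174, adjusted p = 0.0347; rho = 0.90, exact permutation p = 0.00347, adjusted p = 0.0694). It was 0.76 without CSF1 OE 1932 and 2019. Red blood cell transcripts summed to 251 to 936 CPM in controls and 38.5 to 434 CPM in CSF1 OE, and all 5 markers had a log2 fold change below 0. The remaining 38 relations, of the RNA-binding, splicing, heat shock and clock lists, of the partners and receptors linked to RBM3 or CIRBP and of markers of microglia, border macrophages, endothelial cells, mural cells, astrocytes, oligodendrocyte precursor cells, oligodendrocytes, neutrophils, monocytes, cycling cells and Y-linked genes, did not pass. By size of r with Cirbp, the first 4 lists besides neurons and the clock genes were Y-linked genes, red blood cell markers, the partners and receptors, and oligodendrocyte markers. Y-linked genes gave r = -0.92 (exact permutation p = 0.0122, adjusted p = 0.139; rho = -0.86, exact permutation p = 0.0382, adjusted p = 0.153), which was -0.84 without CSF1 OE 1936 and 2019. They summed to 282 to 316 CPM in controls and 302 to 341 CPM in CSF1 OE, so Y-linked transcripts were present in every library. Xist was not among the genes in the count files. Red blood cell markers gave r = 0.88 (exact permutation p = 0.0434, adjusted p = 0.139; rho = 0.93, exact permutation p = 0.0174, adjusted p = 0.131), which was 0.74 without CSF1 OE 1932 and 2019. The partners and receptors gave r = -0.86 (exact permutation p = 0.0156, adjusted p = 0.139; rho = -0.81, exact permutation p = 0.0295, adjusted p = 0.131), which was -0.61 without control 1934 and CSF1 OE 2019. Oligodendrocyte markers gave r = 0.83 with Cirbp (exact permutation p = 0.0243, adjusted p = 0.139; rho = 0.69, exact permutation p = 0.125, adjusted p = 0.253), which was 0.66 without CSF1 OE 1936 and 2019. Microglial markers gave r = -0.77 with Cirbp (exact permutation p = 0.0174, adjusted p = 0.139; rho = -0.71, exact permutation p = 0.0625, adjusted p = 0.179), which was -0.36 without control 1934 and CSF1 OE 2019 and so rested on them. The lists of neurons, astrocytes, oligodendrocytes and their precursors, endothelial cells and mural cells all had positive coefficients with both genes, and the microglial list negative ones.

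Over the 9371 tested genes with a mean of at least 10 CPM, the pair's likeness was not outstanding. By r of the deviations over 8 mice, Cirbp ranked 860 for Rbm3, with 9.17% of genes above it, and Rbm3 ranked 1227 for Cirbp, with 13.1% above it. The 5 genes most like Rbm3 were Kcp (r = 0.99), Cnot6 (0.97), Ndufb4 (0.97), Psip1 (0.97) and Hnrnpa3 (0.96). Hnrnpa3 encodes an RNA-binding protein of the hnRNP group, Cnot6 a deadenylase and Ndufb4 a subunit of respiratory complex I. The 5 genes most like Cirbp were Olfm1 (0.99), Gpm6a (0.98), Rragd (0.98), Uchl1 (0.98) and Cacnb4 (0.98). Olfm1, Gpm6a, Uchl1 and Cacnb4 are genes known for expression in neurons.

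These neighbours differed in how they moved with genotype. Gpm6a, a neuronal membrane glycoprotein, was at 75.9, 79.5, 78.2 and 178 CPM in control mice 1827, 1872, 1874 and 1934 and at 53.3, 108, 96.6 and 33.2 CPM in CSF1 OE mice 1931, 1932, 1936 and 2019. It shared with Cirbp the high control 1934 and the low CSF1 OE 2019, which follows from its choice by likeness to Cirbp within genotypes. Its log2 fold change was -0.50 where that of Cirbp was 0.59. All 5 genes most like Cirbp within genotypes had a log2 fold change below 0 (-1.04 to -0.34), and none was called, with adjusted p from 0.329 to 0.748 in edgeR. Hnrnpa3 and Ndufb4 were above every control in CSF1 OE, as Rbm3 and 6.84% of all genes were. Their log2 fold changes were 0.36 each, while Kcp, Cnot6 and Psip1 overlapped between the genotypes.

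Other RNA-binding proteins included 37 tested genes named Rbm besides Rbm3. Of these, 19 had a log2 fold change above 0 and 18 below, the median was 0.0032, and 3 lay above every control in CSF1 OE (Rbm44, Rbm7 and Rbm17, chosen after their values were seen) against 6.84% of all genes. DESeq2 called none, nor did edgeR without a covariate, while 2, Rbm12b1 and Rbm12b2, were called with the endothelial and precursor covariate, against 1.63% of all genes. The number above 0 ran from 17 to 23 over 20 settings. An unadjusted p under 0.05 was reached by 5, or 3 higher and 2 lower, where 16.5% of all genes reached it. Rbm44 had the highest log2 fold change (1.27, standard error 0.38) at a mean of only 0.797 CPM in controls and 1.97 CPM in CSF1 OE, and Rbm24, a regulator of muscle splicing, the lowest (-0.63). Their summed level was 2019 to 2199 CPM in controls and 1978 to 2237 CPM in CSF1 OE, with overlap.

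The hnRNP genes, whose proteins coat and process pre-messenger RNA, were mostly above 0 in log2 fold change. Many but not all of these proteins carry recognition motifs related to those of RBM3 and CIRBP. Of 24 genes, 23 had a log2 fold change above 0, with a median of 0.25 against -0.034 over all genes, and 22 to 23 were above 0 in each of 20 settings. Neither DESeq2 nor edgeR without a covariate called any of them, while 2 were called with the endothelial and precursor covariate, against 1.63% of all genes. An unadjusted p under 0.05 was reached by 13, all higher in CSF1 OE, where 16.5% of all genes reached it. With the cycling cell covariate 2 of the 24 reached it, against 997 of 13407 genes, and the list's median was 0.19. In CSF1 OE 8 of 24 lay above every control against 6.84% of all genes. Their summed level did not overlap, at 6430 to 6834 CPM in controls and 7883 to 8477 CPM in CSF1 OE. Hnrnpa1, a splicing regulator, was highest in log2 fold change at 0.43 (adjusted p = 0.123, with 493 CPM in CSF1 OE 2019 against 492 CPM in control 1934). Hnrnph3 was lowest at -0.26. Within genotypes the list's mean gave r = 0.34 with Rbm3 (exact permutation p = 0.510, adjusted p = 0.552; rho = 0.50, exact permutation p = 0.281, adjusted p = 0.352), which was 0.94 without control 1827 and CSF1 OE 1931.

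The 6 tested genes with a cold shock domain, the other family named for cold, were split at 3 above and 3 below 0, with a median of 0.037 and no call by edgeR or DESeq2, and the median turned to -0.24 with the range in the fit. Ybx1, the Y-box messenger RNA-binding protein, was at 209 ± 10.4 CPM in controls and 272 ± 24.2 CPM in CSF1 OE (SD, n = 4). It was above every control in CSF1 OE, as were 6.84% of all genes. Its log2 difference was 0.39 with a standard error of 0.09, and its adjusted p in edgeR was 0.0842. It was the only member with an unadjusted p under 0.05. Lin28b, which blocks let-7 maturation, had the lowest log2 fold change, -0.17.

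Body temperature is known to act on splicing through the CLK kinases and SR proteins, and Tnpo1 carries RNA-binding proteins such as CIRBP into the nucleus. Among 20 such genes, 12 were above and 8 below 0, with a median of 0.10 and no call by edgeR. Srsf5 was highest at 0.52 (310.5 ± 46.3 and 443.8 ± 69.8 CPM in control and CSF1 OE, SD, n = 4). It was called by DESeq2, as were 3.14% of all genes. Clk4, a kinase of SR proteins, was lowest at -0.26, and lay below every control in CSF1 OE, as did 462 of the 13407 genes tested. An unadjusted p under 0.05 was reached by 5 of the 20, against 16.5% of all genes.

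**Figure D4:**
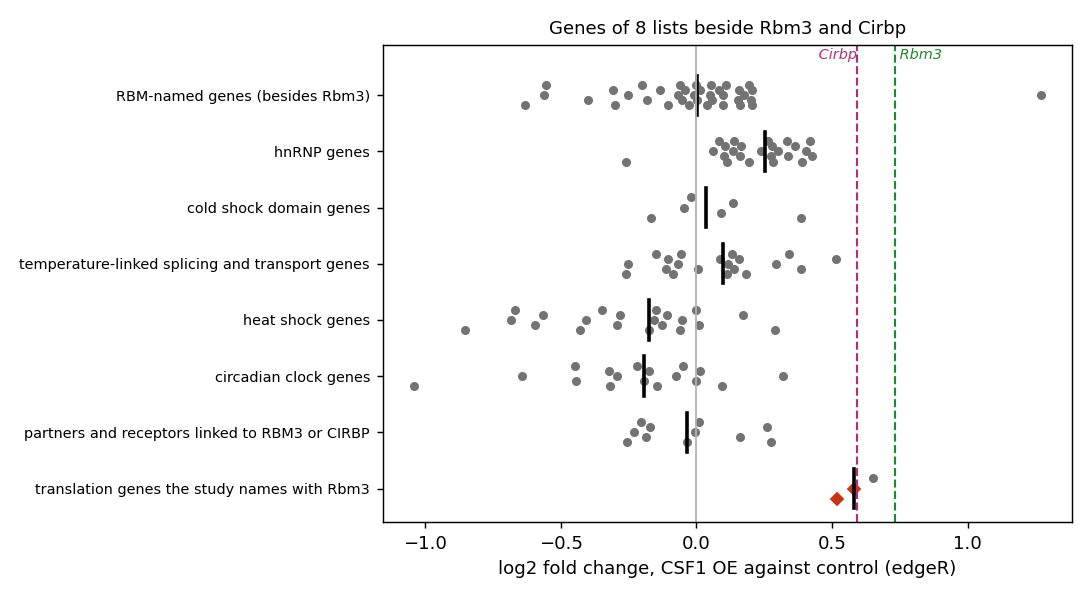
Log2 fold change, CSF1 OE against control, of the tested genes in 8 lists, with 1 point per gene; black ticks are list medians, red diamonds mark called genes, and dashed lines mark Rbm3 (0.73) and Cirbp (0.59). The hnRNP genes lie above 0 except Hnrnph3 but below the line of Rbm3, and the 2 called genes, Npm1 and Eef1b2, are among the translation genes.

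Heat shock genes, induced by the opposite stimulus and by cell handling, varied widely from mouse to mouse. Their summed level over 21 genes was 6012 to 18382 CPM in controls and 5590 to 23551 CPM in CSF1 OE, highest in CSF1 OE 1932 and lowest in CSF1 OE 1931. Of the 21, 3 had a log2 fold change above 0 and 18 below, with a median of -0.18, and edgeR called none without a further term. The number above 0 ran from 1 to 14 over 20 settings, with 14 in the fit that takes the list's own mean as a covariate. DESeq2 called 1 gene of the list, Cryab, where it called 3.14% of all genes. Cryab was also called by edgeR with the range term, which called 9.5% of all genes. It is named here because of those calls. An unadjusted p under 0.05 was reached by 2, against 16.5% of all genes. Hspa4 was highest at 0.29 and Hspb1, the small heat shock protein, lowest at -0.85. With genotype removed, the mean of this list gave r = 0.46 with Rbm3 (exact permutation p = 0.245, adjusted p = 0.297; rho = 0.43, exact permutation p = 0.330, adjusted p = 0.388) and r = 0.58 with Cirbp (exact permutation p = 0.188, adjusted p = 0.259; rho = 0.62, exact permutation p = 0.139, adjusted p = 0.253). Without control 1874 and CSF1 OE 1932 these were 0.32 and 0.078. The partial correlation of Rbm3 with Cirbp given this list was 0.64.

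Of 17 tested circadian clock genes, some of whose transcripts CIRBP is known to bind, 4 were above and 13 below 0 in log2 fold change, with a median of -0.19. None was called by edgeR without a further term, and 5 had an unadjusted p under 0.05, all lower in CSF1 OE. Of all 13407 genes, 16.5% had such a p, with 863 of them lower in CSF1 OE. Hlf was called by DESeq2, as were 3.14% of all genes, and by edgeR in several fits with a further term. These were the range term (9.5% of all genes called), the endothelial and precursor covariate (1.63%) and the neuron covariate (0.932%). Bhlhe40 was called with the range term. Hlf, a clock-controlled transcription factor, had 30.4, 21.8, 20.5 and 14.9 CPM in control mice 1827, 1872, 1874 and 1934 and 10.7, 10.9, 9.61 and 11.4 CPM in CSF1 OE mice 1931, 1932, 1936 and 2019. No CSF1 OE mouse reached the lowest control, as for 462 of the 13407 genes tested. The log2 difference of Hlf was -1.04 (standard error 0.20, adjusted p = 0.0558 in edgeR). Cry1, a repressor of the clock, was highest at 0.32. The list's mean went with Cirbp within genotypes at r = 0.90 (exact permutation p = 0.0365, adjusted p = 0.139; rho = 0.95, exact permutation p = 0.0122, adjusted p = 0.131), and at 0.88 without control 1874 and CSF1 OE 2019. With Rbm3 it gave r = 0.47 (exact permutation p = 0.208, adjusted p = 0.269; rho = 0.67, exact permutation p = 0.111, adjusted p = 0.247).

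Genes linked to what RBM3 or CIRBP do outside or beside RNA included Rtn3, Ntrk2, Creb1, Tlr4, Cd14, Ly96 and Trem1. None of the 11 was called by edgeR or DESeq2, and 1 had an unadjusted p under 0.05, against 16.5% of all genes. Myd88, the adaptor of Toll-like receptors, was highest at 0.27 and Tlr4, the receptor named for extracellular CIRBP, lowest at -0.25, and both overlapped between the genotypes. Tlr4 was at 93.0 ± 18.0 CPM in controls and 78.0 ± 27.9 CPM in CSF1 OE (SD, n = 4).

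The study names Rbm3 together with Eef1b2, Npm1 and Nhp2 as genes of translation or ribosome biogenesis. With EBSeq it reports each of them as upregulated in CSF1 OE. This list was chosen there on these same samples, so its direction is not independent evidence. Of the 3, 2 were called by edgeR, against 0.44% of all genes. Npm1, the nucleolar protein nucleophosmin, rose from 315 ± 26.8 to 471 ± 24.1 CPM (SD, n = 4), with a log2 fold change of 0.58 and an adjusted p of 0.0431. Eef1b2, a subunit of the elongation factor that recharges eEF1A, rose from 232 ± 16.9 to 333 ± 19.8 CPM (SD, n = 4), with a log2 fold change of 0.52 and an adjusted p of 0.0492. Nhp2, a protein of H/ACA ribonucleoproteins, had a log2 difference of 0.65 and an adjusted p of 0.102. Both calls were close to the threshold. Neither gene was called without control 1872, 1874 or 1934 or without CSF1 OE 1931, 1932 or 1936, with adjusted p from 0.0722 to 0.186 in edgeR, and Npm1 was not called without CSF1 OE 2019 (adjusted p = 0.0507). The point estimate of Rbm3, 0.73, was above that of Npm1 and Eef1b2, and its standard error of 0.16 was larger than theirs, both 0.09.

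**Figure D5:**
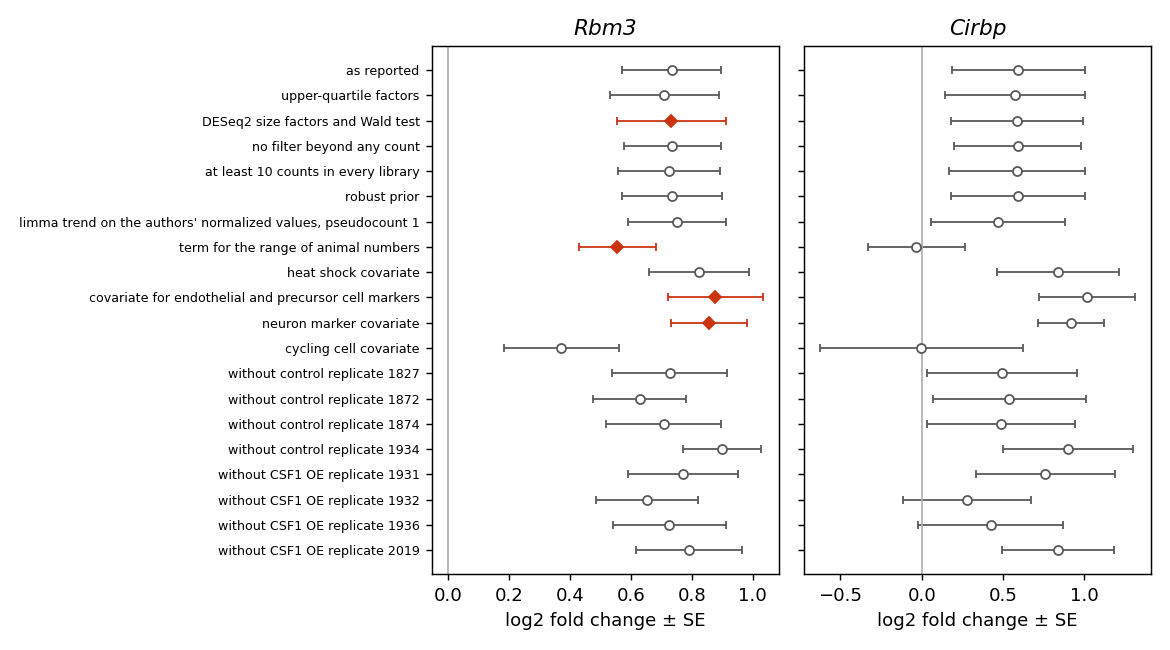
Log2 fold change, CSF1 OE against control, of Rbm3 (left) and Cirbp (right) with its standard error, as reported and under each alternative; red diamonds mark a call. Every estimate of Rbm3 is above 0 (0.37 to 0.90) and 4 are called, while Cirbp runs from -0.034 to 1.02 and is never called.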

How the data were processed

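The RNA-seq libraries of 4 control and 4 CSF1 OE mice were grouped by the genotype code in their labels. Per the submitters' processing notes and the methods, the authors mapped reads with Bowtie 1.0.0 to mm10 and deposited RSEM 1.2.7 expected counts per gene. The annotation is not given in the sources used here. Normalized values, which the authors also deposited as a signal obtained by dividing the counts of each mouse by 1 size factor, served in an alternative only. Expected counts were rounded. Genes passing filterByExpr were tested with edgeR 4.0.16 (TMM, quasi-likelihood, Benjamini-Hochberg) in R 4.3.3, with all 8 mice and no covariate. EBSeq, the study's tool, was not run. DESeq2 1.42.0 and limma 3.58.1 were alternatives, with other normalizations, filters, covariates and single mice left out. CPM used TMM library sizes, and log2 CPM a prior count of 2. A count of 0 allowed up to 3 counts, or 0.177 to 0.266 CPM, for counting error only. The tests were checked on simulated data. Named genes were both members, the called, highest and lowest log2 fold change of each list, and the 5 genes most like each member. Members, lists and rules were chosen with earlier results of these data known.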

Additional observations from a re-analysis of the deposited data

Results flagged for a closer look

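Over the named genes and the ratio of Cirbp to Rbm3, 60 groups of 4 mice were checked for a value far from the rest, measured as the gap to the nearest mouse over the range of the group, with Dixon's 95% limit for 4 values, and 6 exceeded the limit. Chance flags about 1 group in 20, but these groups share mice and are not independent. Control 1934 stood above the other controls in Cirbp (0.866), Gpm6a (0.965) and Cacnb4 (0.835), and the last 2 were named for their likeness to Cirbp. On the log2 scale the Cirbp gap was 0.819, under the limit. CSF1 OE 2019 stood below its group in Hnrnpa1 (0.931). CSF1 OE 1932 stood above its group in Hnrnph3 (0.890) and in Hspb1 (0.890).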

How the results depend on the processing

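The log2 difference of Rbm3 kept its direction under all alternatives and was called with DESeq2 (0.73), the range of animal numbers as a term (0.56), a covariate for endothelial and precursor cell markers (0.88) or one for neuron markers (0.86, added after seeing the data). Without 1 mouse it ran from 0.63 to 0.90 (adjusted p 0.0542 to 0.238 in edgeR). That of Cirbp turned to -0.034 with the range term and to -0.0015 (standard error 0.62) with the cycling cell covariate, added after seeing the data. Without 1 mouse the Cirbp difference ran from 0.28 without CSF1 OE 1932 to 0.90 without control 1934. It was not called under any alternative.

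Within genotypes, r of the pair was 0.94 (exact permutation p = 0.0625) without control 1872 and 1934, 0.49 within genotype and range, and 0.26 given the neuron markers, and ran from 0.65 to 0.90 without 1 mouse. The difference in ratio ran from -0.49 to -0.0098 without 1 mouse. Of 139 tested list members, edgeR called 2 as reported, against 0.44% of all genes. It called 0 with upper-quartile factors, the heat shock covariate or the cycling cell covariate (38, 34 and 10 with an unadjusted p under 0.05). The count was 1 of 144 without a filter, 1 of 136 with at least 10 counts in every library and 1 of 139 with a robust prior. With the range term it was 4 of 139, against 9.5% of all genes. It was 7 with the endothelial and precursor covariate (1.63% of all genes), 3 with the neuron covariate (0.932%) and 0 to 2 without 1 mouse. DESeq2 called 6 of 144, against 3.14% of all genes, and limma 2 of 139.

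Over all genes, 59 calls became 19 (upper-quartile), 427 (DESeq2), 104 (limma), 1273 (range term), 8 (heat shock), 219 (endothelial and precursor), 125 (neuron), 0 (cycling; 997 with an unadjusted p under 0.05) and 3 to 164 without 1 mouse. The causes were not tested. No paired analysis was possible because the genotypes share no animal numbers. With 4 mice a genotype, the interval of the Cirbp fold change was 0.80 to 2.86, and the spread between mice exceeded counting error.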
